A study of Mus musculus with 6 samples.

Results

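The genes described here encode 51 DNA repair and damage checkpoint proteins, chosen by name and sorted by route into recombination (13 genes), the Fanconi pathway (7), mismatch repair (3), base excision (7), nucleotide excision (7), end joining (5) and the checkpoint (9). Each gene was read from 1 Affymetrix probe set, that of highest mean signal over the arrays among the probe sets annotated to that gene alone. Of the 51 genes, 50 had such a probe set, among 18193 genes in all, and 49 passed a filter on low signals and were tested among 12663 genes. Xrcc2, a recombination gene, was not analysed here for want of a probe set of its own, and Bard1, the partner of Brca1, lay below the filter.

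The samples were 6 mouse neural stem cell lines, which the study's design calls independent, with 1 array for each. Of these, 3 lines were labelled FoxO-null and 3 were labelled wild-type, so the comparison asks how transcript levels differ between lines labelled as lacking and as having FoxO, a family of forkhead transcription factors that growth factor signals keep out of the nucleus. The labels name neither the FoxO genes deleted nor the driver of the deletion, and give no age, passage or culture condition. All values are MAS5 signals on a linear scale, and log2 fold changes are lines labelled FoxO-null minus lines labelled wild-type on the log2(signal + 5.94) scale, given with the standard error (SE) of the limma fit.

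Cells meet DNA damage with several routes. Mismatch and excision repair replace wrong or altered bases on a single strand. Recombination copies the sister chromatid to mend a broken chromosome or a stalled replication fork, the Fanconi proteins unhook crosslinks between the strands, and end joining ligates broken ends directly. The Atm and Atr kinases sense breaks and stalled forks and, through Chek2 and Chek1, hold the cell cycle. Many recombination, Fanconi and fork checkpoint genes are E2F targets whose transcripts peak in S phase, whereas most end joining and nucleotide excision genes are transcribed throughout the cycle. Dividing neural progenitors are known to depend on these routes, and loss of several of the genes causes small brains.

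The FoxO transcripts went against the labels. Foxo1 read 77.9, 77.8 and 100.3 on the arrays labelled FoxO-null and 20.3, 20.4 and 31.7 on those labelled wild-type. Foxo3 read 578, 667 and 856 on the arrays labelled FoxO-null and 267, 611 and 507 on those labelled wild-type. Foxo4 read 178, 57.2 and 189.9 on the arrays labelled FoxO-null and 5.56, 4.14 and 17.1 on those labelled wild-type. Of the 9 probe sets for the 3 genes, 8 had a positive log2 fold change, and on 5 every array labelled FoxO-null was above every array labelled wild-type. A probe set outside a deleted stretch checks nothing, and where these lie relative to the deletion is not known here. Whether the 2 groups' labels stand on the right arrays was not tested either, and an exchange would turn every sign below. Each direction below therefore follows the labels of the lines, not a measured loss of FoxO.

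The array of wild-type 1 stood apart in the 18S rRNA 5' control, at 211 against 23.5 to 38.9 on the others. It also gave the highest of the 6 readings for 18 of the 49 genes, more than any other array, while FoxO-null 3 gave the lowest for 17. The 3'/5' ratio of the Gapdh control lay between 0.789 and 0.928. The brightest bacterial control, taken as an array's background, read 19.2, 27.6 and 26.9 on the arrays labelled FoxO-null and 14.4, 15.8 and 19.1 on those labelled wild-type. On all 6 arrays 45 of the 49 genes were brighter than that background. The exceptions were Rad54b, Xrcc3, Ddb2 and Lig4, each under it on at least 1 array labelled FoxO-null.

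Most of the 49 genes read lower in the lines labelled FoxO-null, though none passed the test on its own. A negative log2 fold change was seen in 39 of 49, against 48.2% of all genes tested, and the median was -0.16, against 0.0099 over all genes tested. No gene passed the threshold of a Benjamini-Hochberg adjusted p under 0.05 (limma, over all genes tested), which 5 of 12663 genes passed (0.0395%), and the smallest adjusted p among the 49 was 0.281, for Topbp1. At an unadjusted limma p under 0.05, 5 of the 49 genes (10.2%) were lower, against 4.9% of all genes tested, and 0 were higher, against 5.31%. The groups did not overlap in 10 genes (20.4%), all lower in the lines labelled FoxO-null, against 7.93% of all genes tested in that direction and 8.08% in the other. No gene differed 2-fold.

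These counts moved with single arrays. Without wild-type 1 and, separately, without wild-type 3, 3 genes were lower at an unadjusted limma p under 0.05, against 4.59% and 4.55% of all genes tested in those fits. Without FoxO-null 2 there were 7 such genes, against 4.97% of all genes tested. Without FoxO-null 2 the groups did not overlap in 18 genes, against 13.2% of all genes tested in that fit. In bulk RNA, fewer cells expressing a gene and less of its RNA per cell cannot be told apart.

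**Figure D1:**
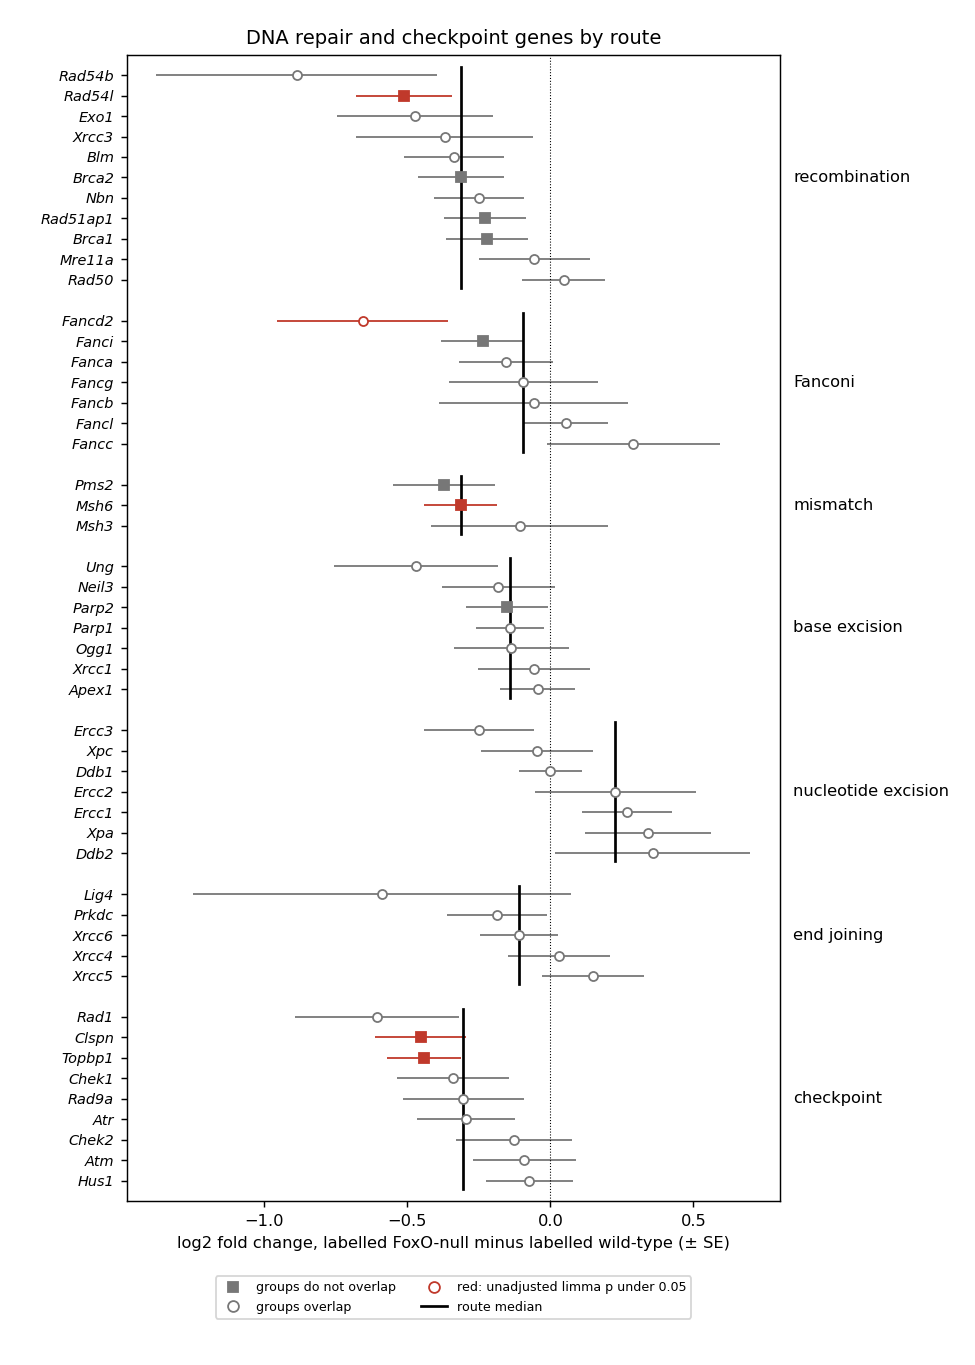
Log2 fold change (lines labelled FoxO-null minus lines labelled wild-type) of the 49 tested genes with its SE, grouped by route, with a black line at each route's median. Red marks an unadjusted limma p under 0.05, and squares mark genes whose groups do not overlap. The medians of recombination (-0.31), mismatch (-0.31) and checkpoint genes (-0.30) lie left of 0 and that of nucleotide excision genes (0.23) lies right of it.

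Of the recombination genes 10 of 11 were negative, with a median of -0.31. At an unadjusted limma p under 0.05, 1 of 11 (9.09%) was lower, against 4.9% of all genes tested. Rad54l encodes Rad54, a translocase that acts on DNA during strand invasion. It read 173, 189 and 246 in the lines labelled FoxO-null and 345, 253 and 276 in those labelled wild-type. The highest line labelled FoxO-null thus stayed just under the lowest line labelled wild-type, and the log2 difference was -0.51 ± 0.17 (limma adjusted p 0.324). Without wild-type 1 the difference was -0.39, and the unadjusted p stayed under 0.05 in 5 of the 6 fits that left out 1 array. Its fainter probe sets were at -0.33, 0.018 and -0.49, the last of them under background on every array.

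The Brca genes and their neighbours differed less but kept the groups apart. Brca2, a mediator of strand exchange, read 119, 132 and 111 in the lines labelled FoxO-null and 156, 143 and 155 in those labelled wild-type (-0.31 ± 0.15, limma adjusted p 0.517). Brca1, which with Bard1 forms a ubiquitin ligase that favours resection of broken ends, read 140.1, 159 and 171 in the lines labelled FoxO-null and 184, 181 and 184 in those labelled wild-type (-0.22 ± 0.14, limma adjusted p 0.628). The wild-type readings of Brca1 were nearly equal, while the lines labelled FoxO-null spread below them, and without FoxO-null 1 the difference was -0.15. All 4 Brca1 probe sets were negative, between -0.17 and -0.24. Rad51ap1, which stimulates strand pairing, read 151, 134 and 159 in the lines labelled FoxO-null and 177, 167 and 177 in those labelled wild-type (-0.23 ± 0.14, limma adjusted p 0.622). Its other probe sets gave -0.65, -0.54 and -0.027, so the chosen probe set was not the one with the largest difference.

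The rest of the route overlapped between groups. Of the end-binding complex, Rad50 and Mre11a were close to even, at 0.047 ± 0.15 and -0.056 ± 0.19, whereas Nbn was at -0.25 ± 0.16. A fainter Mre11a probe set, above background on every array, was at 0.36 ± 0.27. Blm, the helicase that dissolves joined intermediates, was at -0.34 ± 0.17, and Exo1, a nuclease of resection and mismatch repair, at -0.47 ± 0.27. Exo1 read 178 on wild-type 1, against 86.1 and 102.8 on the other wild-type arrays. Xrcc3, which acts late in recombination, was at -0.37 ± 0.31. Rad54b, a relative of Rad54, was at -0.89 ± 0.49, and only 1 of its 3 readings in lines labelled FoxO-null (24.0, 14.9 and 3.88) was above its array's background. Bard1 read 4.87, 5.44 and 3.17 in the lines labelled FoxO-null and 15.8, 1.63 and 19.8 in those labelled wild-type, at or near background throughout.

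The Fanconi genes were mixed, with 5 of 7 negative and a median of -0.095. The lower ones included Fancd2 and Fanci, the pair that the Fanconi core complex ubiquitinates at a crosslink. Fancd2 read 37.6, 80.2 and 105 in the lines labelled FoxO-null and 101.5, 125.6 and 109.5 in those labelled wild-type (-0.66 ± 0.30, limma adjusted p 0.488). FoxO-null 1 carried most of this difference: without it the log2 fold change was -0.27. With all 4 probe sets averaged it was -0.12. That average takes in a probe set at 0.62, under background on every array, and another at -0.0081, above it on only 1. The remaining Fancd2 probe set, above background on every array, was at -0.44 ± 0.25 with groups apart. Fanci read 136, 149 and 160.5 in the lines labelled FoxO-null and 167, 191 and 169.6 in those labelled wild-type, with no overlap (-0.24 ± 0.15, limma adjusted p 0.614). The core complex genes Fanca, Fancb, Fancc and Fancg were at -0.16 ± 0.17, -0.059 ± 0.33, 0.29 ± 0.30 and -0.095 ± 0.26. Fainter probe sets of Fancc (-0.29 ± 0.33) and Fancg (0.52 ± 0.39), above background on every array, went the other way. The directions of these genes are thus uncertain. Fancl, the ubiquitin ligase of the core, was at 0.053 ± 0.15. By their chosen probe sets, core genes thus lay on both sides of 0, within their errors.

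All 3 mismatch repair genes were negative, with a median of -0.31. Msh6, which recognises base mismatches, read 282, 281 and 241 in the lines labelled FoxO-null and 329.8, 312 and 361 in those labelled wild-type. The groups did not overlap, at a log2 difference of -0.31 ± 0.13 (limma adjusted p 0.428). Msh6 had a single probe set. Pms2, a nuclease of mismatch repair, read 85.8, 89.7 and 70.7 in the lines labelled FoxO-null and 113, 101.2 and 108 in those labelled wild-type (-0.37 ± 0.18, limma adjusted p 0.514). The groups were apart here as well, although a fainter Pms2 probe set was at 0.24 and another at -0.57. Msh3, which recognises larger loops, was at -0.11 ± 0.31.

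Checkpoint genes were negative in 9 of 9 by their chosen probe sets, with a median of -0.30, and held the smallest p of any route. Topbp1, which activates Atr at stalled forks, read 329, 407 and 319.5 in the lines labelled FoxO-null and 517, 449 and 468 in those labelled wild-type. Every line labelled FoxO-null was below every line labelled wild-type, at a log2 difference of -0.44 ± 0.13 and a ratio of 0.737 (limma adjusted p 0.281). The unadjusted p stayed under 0.05 in all 6 fits that left out 1 array, with log2 fold changes of -0.55 to -0.38. Clspn, the adaptor by which Atr reaches Chek1, read 142, 191 and 192 in the lines labelled FoxO-null and 262, 247 and 212 in those labelled wild-type (-0.45 ± 0.16, limma adjusted p 0.370). The groups did not overlap, and without FoxO-null 1 the difference was -0.32. Among the other genes with an unadjusted p under 0.05, it stayed there in 4 of these 6 fits for Clspn, 3 for Msh6 and 2 for Fancd2.

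The checkpoint kinases overlapped between the groups. Atr was at -0.29 ± 0.17. It read 105, 143 and 102 in the lines labelled FoxO-null and 145, 144 and 141 in those labelled wild-type, so FoxO-null 2 lay with the wild-type lines. Its effector Chek1 was at -0.34 ± 0.19, with 168 on wild-type 1 against 111 and 115 on the other wild-type arrays. Atm and its effector Chek2 were closer to 0, at -0.091 ± 0.18 and -0.13 ± 0.20. The sliding clamp of Rad9a, Rad1 and Hus1, which marks damage for Topbp1, was at -0.30 ± 0.21, -0.61 ± 0.29 and -0.073 ± 0.15. A fainter Hus1 probe set, above background on every array, went the other way. It read 119, 85.0 and 102 in the lines labelled FoxO-null and 73.6, 61.2 and 62.4 in those labelled wild-type. Its log2 fold change was 0.58 ± 0.20 (limma unadjusted p 0.0147, adjusted p 0.552 over all probe sets), so the direction of Hus1 is uncertain. Rad1 varied widely among the lines, with 68.9, 33.1 and 46.1 in those labelled FoxO-null and 57.0, 76.3 and 97.6 in those labelled wild-type.

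**Figure D2:**
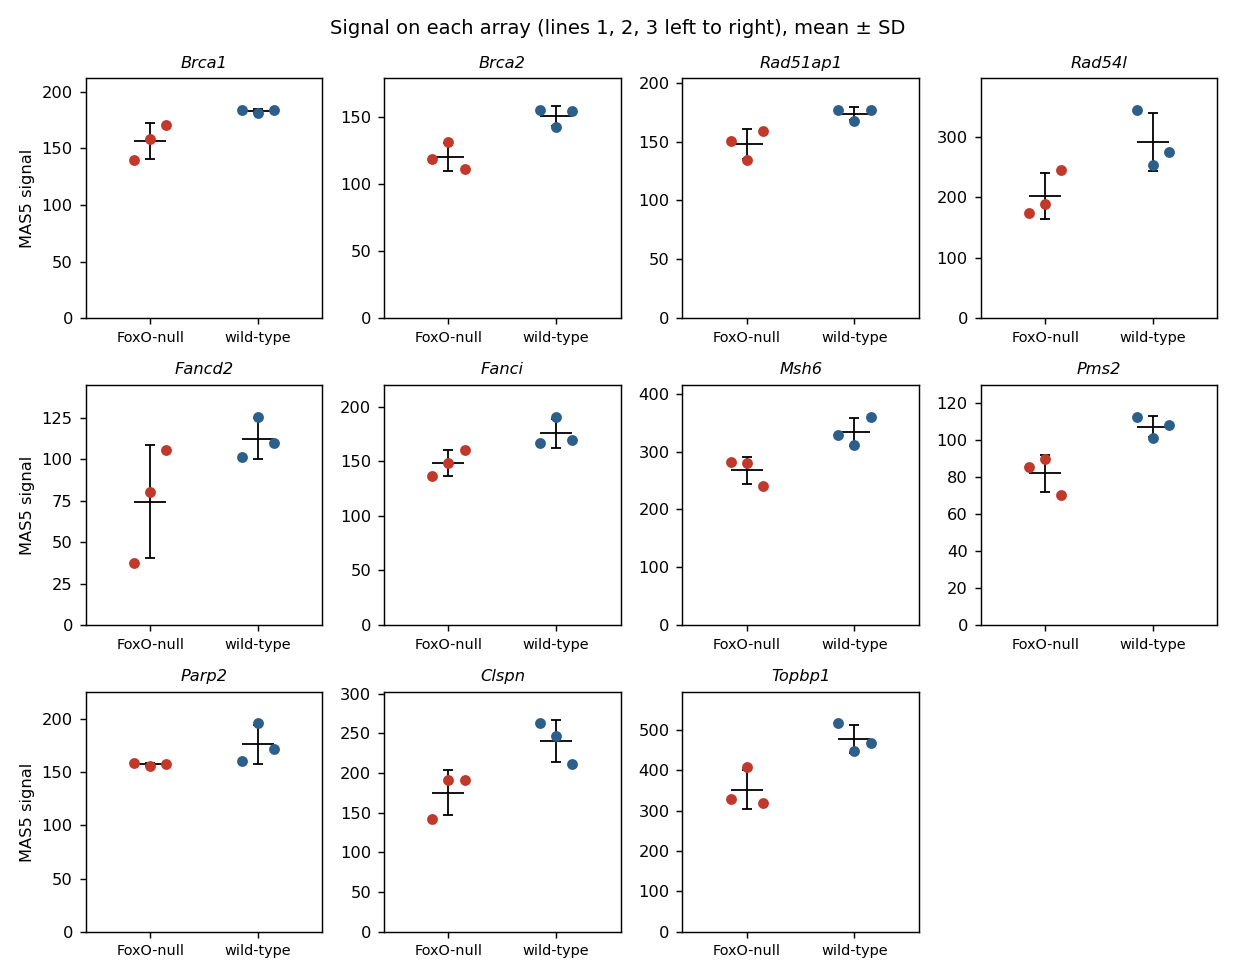
MAS5 signal on each array, on axes that start at 0, of the 11 genes with an unadjusted limma p under 0.05 or with groups that do not overlap. Points are lines 1 to 3 from left to right in each group, with the mean and SD (n = 3 lines per group). In 10 of the 11 genes every line labelled FoxO-null lies below every line labelled wild-type, the exception being Fancd2.

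Base excision genes were negative in 7 of 7, but most by little, with a median of -0.14. The break sensor gene Parp2 read 159, 156 and 158 in the lines labelled FoxO-null and 160.6, 196 and 172 in those labelled wild-type. The nearest lines of the groups were almost level, and the log2 fold change was -0.15 ± 0.14 (limma adjusted p 0.765). Without wild-type 2 it was -0.075. Parp1, the main poly(ADP-ribose) polymerase, was at -0.14 ± 0.12. Its other bright probe sets disagreed, with groups apart at -0.42 ± 0.12 in one (limma unadjusted p 0.0036, adjusted p 0.401 over all probe sets) and -0.00059 ± 0.13 in another. The glycosylase genes Ung, Neil3 and Ogg1, whose products cut out uracil or oxidised bases, were at -0.47 ± 0.29, -0.18 ± 0.20 and -0.14 ± 0.20. Ung was the most uneven of them, with 93.6, 104 and 52.0 in the lines labelled FoxO-null and 164, 84.1 and 104 in those labelled wild-type. The core steps after base removal were nearly even. Apex1, the endonuclease that cuts at the empty site, averaged 1001 ± 141 in the lines labelled FoxO-null and 1029 ± 114 in those labelled wild-type (SD, n = 3 each), and Xrcc1, the scaffold of the ligation step, averaged 155 ± 34.7 in the lines labelled FoxO-null and 160.1 ± 26.7 in those labelled wild-type.

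Nucleotide excision was the route with a positive median, 0.23, with 5 of 7 genes positive, among them Ddb1 at only 0.00018. No gene of the route had groups apart and none had an unadjusted limma p under 0.05. Xpa, the protein that verifies a lesion, read 97.7, 107 and 65.2 in the lines labelled FoxO-null and 64.7, 76.0 and 64.8 in those labelled wild-type (0.34 ± 0.22). FoxO-null 3 lay with the wild-type lines, and without it the difference was 0.54. Ddb2, which finds ultraviolet lesions, read 67.1, 48.2 and 25.8 in the lines labelled FoxO-null and 28.5, 31.0 and 40.9 in those labelled wild-type (0.36 ± 0.34). FoxO-null 3 was again the low one of its group and was under its array's background. Without FoxO-null 1 the difference in Ddb2 was 0.087.

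Ercc1, partner of the nuclease that cuts beside the lesion, was at 0.27 ± 0.16 by its brightest probe set, whereas its other probe set above background on all arrays was at -0.25 ± 0.16. Its direction is thus uncertain. The helicase genes Ercc2 and Ercc3, of the transcription factor that opens DNA at a lesion, lay on opposite sides, at 0.23 ± 0.28 and -0.25 ± 0.19. Ercc2 read 61.3 on wild-type 1, against 142 and 132 on the other wild-type arrays. The lesion sensor Xpc was at -0.047 ± 0.20, and Ddb1, which also serves ubiquitin ligases outside repair, averaged 678 ± 29.1 in the lines labelled FoxO-null and 679 ± 55.0 in those labelled wild-type (SD, n = 3 each). Without wild-type 1 the median of the route was -0.068, and with all probe sets of each gene averaged it was 0.00018, so its positive sign rested on 1 array and on the choice of probe sets.

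End joining genes centred near 0, with 3 of 5 negative and a median of -0.11, which turned to 0.13 with all probe sets averaged. That average takes in a second Xrcc6 probe set at 0.73, which was under background on every array. The Ku genes Xrcc5 and Xrcc6, whose products ring broken ends, were at 0.15 ± 0.18 and -0.11 ± 0.14. Prkdc, the kinase that Ku recruits, was at -0.19 ± 0.17. Of the ligase pair, Xrcc4 was at 0.032 ± 0.18 and Lig4 at -0.59 ± 0.66. Lig4 read 47.8, 34.2 and 1.11 in the lines labelled FoxO-null and 48.3, 31.9 and 19.2 in those labelled wild-type, so a single reading under background on FoxO-null 3 set its difference.

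**Figure D3:**
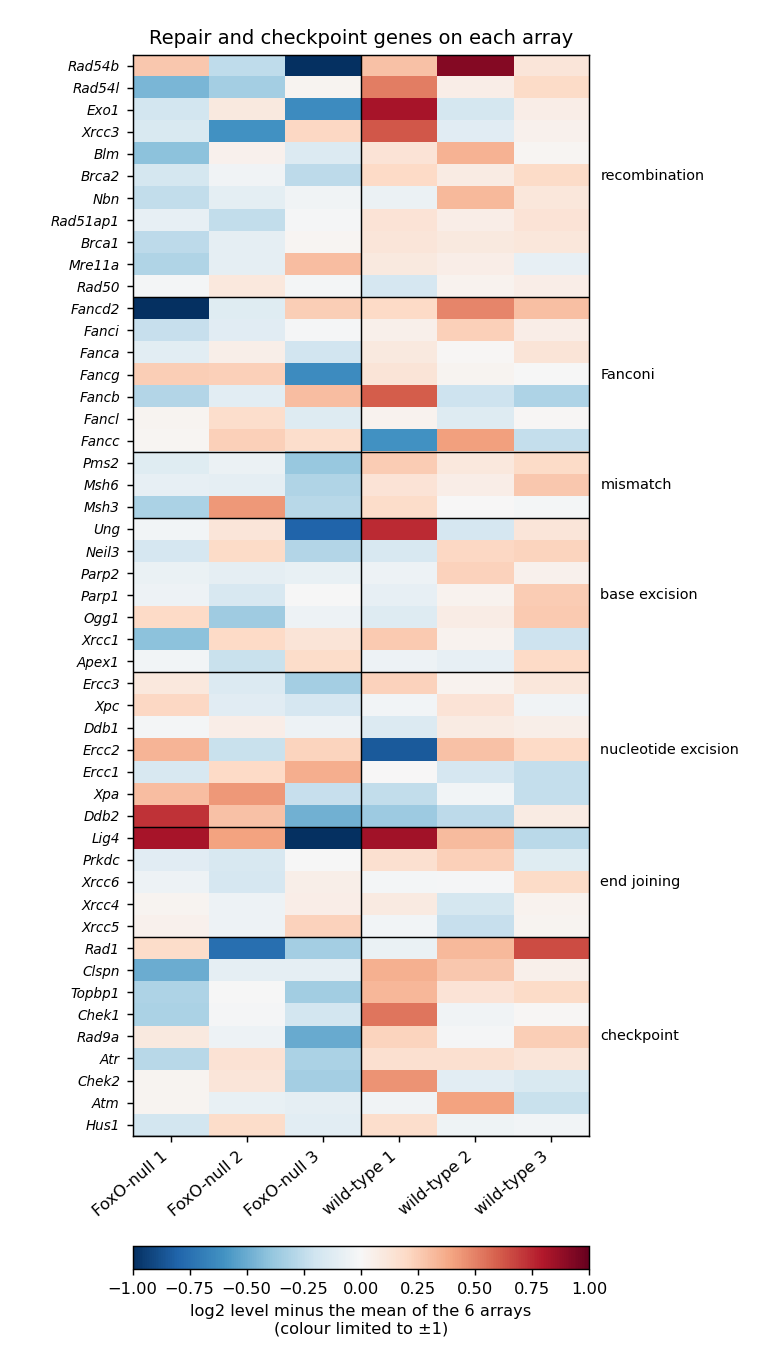
Log2 level of each of the 49 tested genes on each array, minus that gene's mean over the 6 arrays, with red above and blue below it and the colour limited to ±1. Rows are sorted by log2 fold change within each route, and the 3 arrays labelled FoxO-null are on the left. Wild-type 1 gave the highest reading for 18 genes, among them Exo1, Ung, Chek1 and Chek2.

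The routes also differed in how evenly the lines of a group behaved. Relative to the mean of the 6 arrays, the mean log2 level of the recombination genes was -0.18, -0.14 and -0.17 in the lines labelled FoxO-null and 0.25, 0.15 and 0.089 in those labelled wild-type. Checkpoint genes stood at -0.14, -0.059 and -0.26 in the lines labelled FoxO-null and 0.24, 0.12 and 0.098 in those labelled wild-type. In both routes the lines of the 2 groups lay on opposite sides of the mean. Base excision genes did so too, within -0.13 to -0.045 in the lines labelled FoxO-null and 0.047 to 0.13 in those labelled wild-type. For the Fanconi, mismatch, nucleotide excision and end joining genes the groups overlapped, with the Fanconi genes at -0.21, 0.054 and -0.031 in the lines labelled FoxO-null and 0.072, 0.12 and -0.0069 in those labelled wild-type. These are descriptions of named genes on shared arrays and were not tested.

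**Figure D4:**
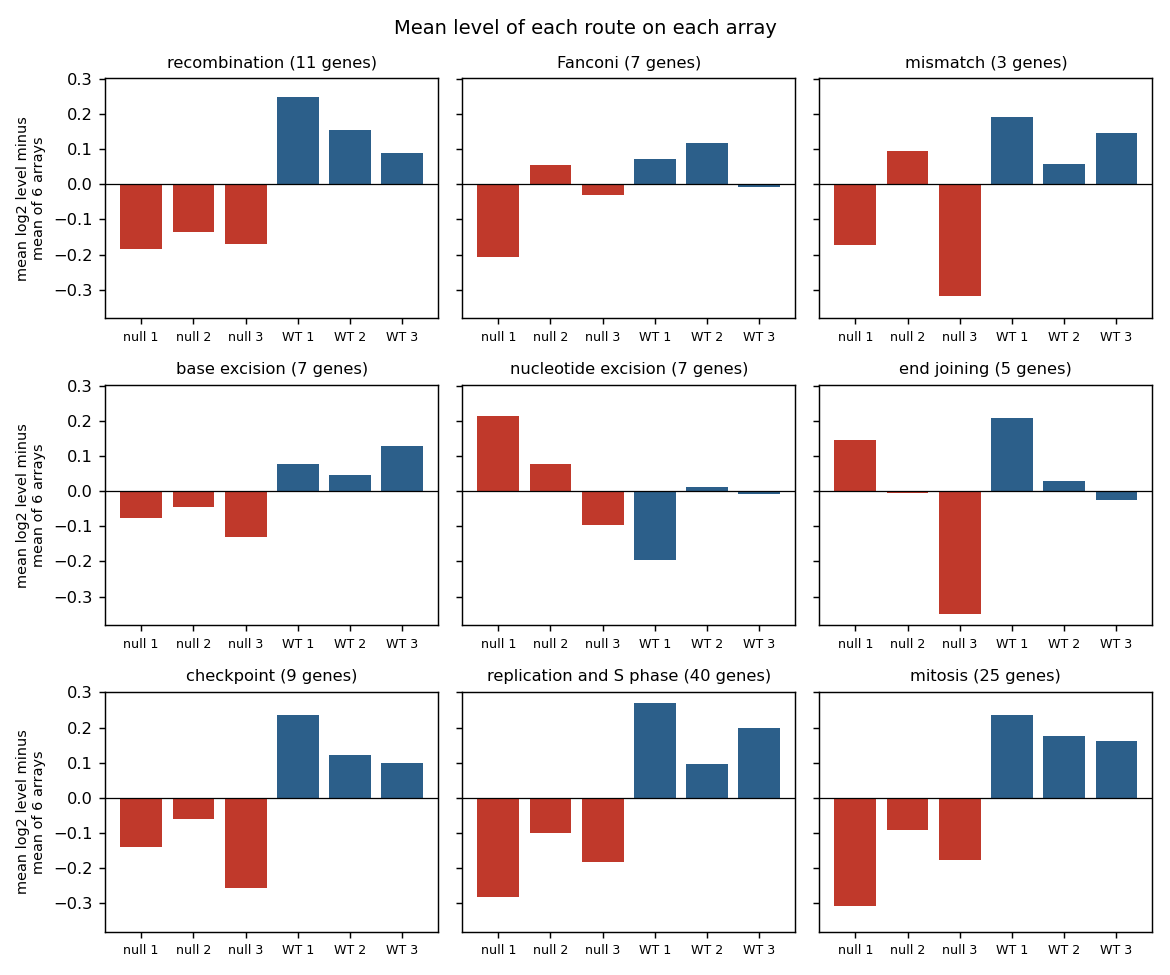
Mean log2 level of each route on each array, minus the mean of the 6 arrays, beside 40 replication and S phase genes and 25 mitosis genes. Red bars are the lines labelled FoxO-null 1 to 3 and blue bars the lines labelled wild-type 1 to 3. Recombination, checkpoint and base excision genes have the same sign by group as replication genes (-0.28, -0.099 and -0.18 in the lines labelled FoxO-null). Nucleotide excision genes are lowest on wild-type 1 (-0.20).

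Replication and cell division transcripts were lower in the same lines, with medians further from 0. Of 40 tested genes of DNA replication and S phase entry, 39 were negative (97.5%, against 48.2% of all genes tested), and the median was -0.38. At an unadjusted limma p under 0.05, 22 (55.0%) were lower, against 4.9% of all genes tested, though none passed over all genes tested. Tk1, the thymidine kinase, averaged 317 ± 23.2 in the lines labelled FoxO-null and 508 ± 59.2 in those labelled wild-type (SD, n = 3 each; -0.66 ± 0.13, limma adjusted p 0.136), and the replicative helicase gene Mcm5 was at -0.55 ± 0.12. Of 25 mitosis genes all were negative, and 18 (72.0%) were lower at an unadjusted limma p under 0.05, against 4.9% of all genes tested. The spindle pole gene Aspm was at -0.76 ± 0.16 and the mitotic kinesin gene Kif11 at -0.51 ± 0.12. The median of the mitosis genes was -0.36, and none of them passed over all genes tested. Of 21 genes listed as p53 targets, which include Xpc and Ddb2, 16 were negative with a median of -0.29. At an unadjusted limma p under 0.05, 4 of the 21 (19.0%) were lower and 0 were higher, against 4.9% and 5.31% of all genes tested. Among these, Aen was at -0.36 ± 0.11 and the cell cycle inhibitor gene Cdkn1a at -0.32 ± 0.11. The part that the share of cycling cells has in the repair differences was not tested.

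A wider list of 108 other repair genes, of which 92 were tested, was less one-sided in sign. In it 58 genes (63.0%) were negative. At an unadjusted limma p under 0.05, 10 (10.9%) were lower, a share like that of the 49 genes (10.2%) and against 4.9% of all genes tested. In the other direction 2 of the 92 were higher, against 5.31% of all genes tested. None of the 92 passed over all genes tested, and the median was -0.10. Among the 8 of smallest p, the fork protection pair Tipin and Timeless was at -0.42 ± 0.13 and -0.38 ± 0.14. H2ax, the histone variant phosphorylated at breaks, averaged 1170.2 ± 46.6 in the lines labelled FoxO-null and 1500 ± 35.2 in those labelled wild-type (SD, n = 3 each; -0.36 ± 0.099, limma adjusted p 0.254). Its groups lay far apart relative to their spread. Fen1, the flap nuclease of replication and base excision, was at -0.81 ± 0.23, Usp1, which removes ubiquitin from Fancd2, at -0.30 ± 0.12, and Smc6, of a chromosome-linking complex, at -0.42 ± 0.15. Faap100, of the Fanconi core, was at -0.61 ± 0.21. Mlh3, a relative of Pms2, was the one on the other side, with 48.5, 50.9 and 57.7 in the lines labelled FoxO-null and 36.4, 23.1 and 26.9 in those labelled wild-type (0.76 ± 0.28, limma adjusted p 0.375).

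Markers of other cell types were read beside these values. All 10 neural stem cell markers, among them Nes and Sox2, were above background on every array. Their summed signals were 31731 to 35285 in the lines labelled FoxO-null and 25289 to 33513 in those labelled wild-type. Of the 10, 7 were positive and 3 negative. At an unadjusted limma p under 0.05, 3 were higher, against 5.31% of all genes tested, and 0 were lower, against 4.9%. Summed signals of 10 astrocyte markers were 7081 to 8047 in the lines labelled FoxO-null and 4888 to 6114 in those labelled wild-type, and those of 11 oligodendrocyte lineage markers were 15733 to 16605 in the lines labelled FoxO-null and 12194 to 13668 in those labelled wild-type. Cnp, an enzyme of myelin-forming cells, was the 1 marker that passed over all genes tested (0.87 ± 0.12, limma adjusted p 0.0496), while Gjb6 and Mog were never above background. Both glial sums were thus higher in every line labelled FoxO-null, and their part in the repair differences was not tested. Of 10 neuron markers 8 were above background on every array, with sums of 1665 to 1727 in the lines labelled FoxO-null and 1561 to 1949 in those labelled wild-type. Microglia markers summed to 158 to 177 in the lines labelled FoxO-null and 115 to 161 in those labelled wild-type, with Aif1, Itgam, C1qa, Tyrobp and Ptprc never above background. Endothelial markers summed to 98.3 to 175 in the lines labelled FoxO-null and 95.0 to 146 in those labelled wild-type, with Pecam1, Tek and Vwf never above it. Fibroblast and mural markers summed to 205 to 291 in the lines labelled FoxO-null and 196 to 324 in those labelled wild-type, with Dcn never above it.

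The promoters were read for letters of factors that bear on the comparison. Windows of 300 bases, from 250 before to 50 after a transcription start, were taken from RefSeq on GRCm38.p6, where 40 of the 50 genes matched with 43 windows. An E2F motif, spelled TTTCGCG or else TTTGGCG or else TTTCCCG and searched on both strands, was in 11 of the 43 windows (25.6%), against 9.06% of 13131 windows of genes tested on the arrays and 5.58% of all 32851 windows. It was in 4 of 9 checkpoint windows, 3 of 3 mismatch windows and 2 of 9 recombination windows, in 1 of 6 Fanconi and 1 of 5 end joining windows, and in 0 of 7 base excision and 0 of 4 nucleotide excision windows. In replication and S phase genes it was in 15 of 33 windows (45.5%). A forkhead motif, GTAAACA or ATAAACA on either strand, was in 1 of the 43 windows (2.33%), against 5.19% of windows of genes tested and 7.97% of all. The motif of the cell cycle homology region, TTTGAA, was in 2 windows (4.65%, against 11.9% of windows of genes tested), and the CCAAT box in 22 (51.2%, against 37.4%). A match is only a run of letters, and no binding was measured.

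The windows below are those of the 3 genes of smallest p that hold an E2F motif, followed by the single window with a forkhead motif, that of Brca2. They are written 5' to 3' on the gene's strand, and capitals mark the E2F motif in the first 3 and the forkhead motif in the last. Topbp1 lies at chr9:103305077-103305376 and holds the motif at -236 and -128 relative to the start, which is position 0. Clspn lies at chr4:126556730-126557029 and holds it at -120 and 22. Msh6 lies at chr17:87974800-87975099 and holds it at 15. Brca2 lies at chr5:150522371-150522670 with forkhead motifs at -234 and -190, and it is also among the 11 windows with an E2F motif. All 4 genes lie on the plus strand.
Topbp1: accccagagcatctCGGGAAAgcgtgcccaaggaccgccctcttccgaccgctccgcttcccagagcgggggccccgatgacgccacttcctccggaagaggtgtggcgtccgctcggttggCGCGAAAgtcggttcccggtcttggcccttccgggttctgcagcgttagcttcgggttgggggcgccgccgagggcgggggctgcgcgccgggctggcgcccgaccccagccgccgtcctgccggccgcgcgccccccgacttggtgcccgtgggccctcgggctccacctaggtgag
Clspn: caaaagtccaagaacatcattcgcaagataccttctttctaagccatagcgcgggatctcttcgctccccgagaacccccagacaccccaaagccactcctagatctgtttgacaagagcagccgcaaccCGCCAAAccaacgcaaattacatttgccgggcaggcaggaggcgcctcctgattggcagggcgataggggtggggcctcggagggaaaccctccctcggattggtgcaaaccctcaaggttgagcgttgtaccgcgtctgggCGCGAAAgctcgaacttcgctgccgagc
Msh6: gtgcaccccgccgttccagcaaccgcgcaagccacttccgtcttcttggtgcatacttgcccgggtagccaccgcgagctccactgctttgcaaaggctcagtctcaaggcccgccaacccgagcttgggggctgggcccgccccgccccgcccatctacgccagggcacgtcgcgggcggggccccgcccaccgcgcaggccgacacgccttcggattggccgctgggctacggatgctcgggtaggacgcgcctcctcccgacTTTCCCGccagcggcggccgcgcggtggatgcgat
Brca2: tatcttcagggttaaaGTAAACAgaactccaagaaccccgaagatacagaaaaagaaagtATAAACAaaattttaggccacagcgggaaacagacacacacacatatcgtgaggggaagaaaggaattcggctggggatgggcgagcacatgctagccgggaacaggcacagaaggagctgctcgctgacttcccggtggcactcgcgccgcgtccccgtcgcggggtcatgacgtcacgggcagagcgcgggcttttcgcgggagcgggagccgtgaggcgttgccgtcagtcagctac

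Topbp1, Clspn and Msh6 were shown because of their small p, so groups apart in them say nothing about the motif. The groups of Brca2 did not overlap either. Rad54l, with the second smallest p of the 49, held no E2F motif in its 2 windows but a CCAAT box in both. Of the other genes with groups apart, Pms2 held an E2F motif, whereas Brca1, Rad51ap1, Fanci and Parp2 held none in their windows. Among genes close to even, Xrcc6, Fancg, Msh3 and Chek2 held an E2F motif as well, so the letters were not limited to genes with groups apart. Fancd2 had no window in the table.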

How the data were processed

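Total RNA (6 ug for each array) was labelled with biotin and hybridised to Affymetrix arrays, per the labels' protocols. The deposited intensity values are MAS5 signals made by the authors, per the submitters' processing notes. Neither the MAS5 version nor the target of scaling is given in the sources used here. On each array the mean after trimming 2% at each end was 100.0, so the deposited scaling was kept. The table held 45101 probe sets, 64 of them controls. GEO's platform annotation gave 34945 of them 1 gene, 932 several genes and 9160 none. Gene IDs of the annotation were matched to the mouse gene table of GRCm38.p6 for 34741 probe sets, which changed 0 symbols. Value columns left out numbered 0.

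The 20th percentile of all values was added to each signal as an offset of 5.94 before log2 was taken, and genes with a mean under the 40th percentile of non-control probe sets (a signal of 16.2) were left out. The fit was lmFit and eBayes with an intensity trend (limma 3.58.1, R 4.3.3), two-sided, with no covariates. Outside the alternatives, the p-values of the chosen probe sets come from it and were adjusted over all 12663 genes tested. They take the lines to be separate cultures, which rests on the study's design text. With 3 lines in each group the smallest two-sided exact permutation p is 0.1, so no such test was used. The number of arrays limits the precision. The FoxO probe sets were fitted with all 45037 non-control probe sets. The fit was tested on simulated data. Tables and figures were made with Python 3.11.15, pandas 2.3.3, numpy 2.4.6 and matplotlib 3.10.9.

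The genes, routes, context lists, markers and motifs were chosen with earlier results of these data known. By rule, genes with an unadjusted p under 0.05 or groups apart are given array by array, 8 other repair genes and 2 genes from each remaining context list are those of smallest p, and windows were printed for the genes of smallest p holding an E2F or forkhead motif, up to 3 of each. No set of genes was tested as a set. The alternatives were 2 other offsets, 2 other filters, 2 normalizations, the mean of all probe sets, no trend, the replicate number as a block and each array left out.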

Additional observations from a re-analysis of the deposited data

How the results depend on the processing

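Under the 15 alternatives none of the repair genes passed over all genes tested, and each of the 11 genes followed kept a negative log2 fold change in all of them (165 values). These 11 were chosen from the main fit, by a small p or groups apart. Where the groups lay apart, leaving out 1 array cannot change the sign, so the count of negative values is no separate check. The count of genes passing over all genes tested, 5, was 1 with an offset of 1, no filter, quantile normalization or the mean of all probe sets, 0 with median centring or no intensity trend, and 0 to 11 when 1 array was left out. For 0 calls with median centring, 1047 genes had an unadjusted limma p under 0.05, with no trend 1107 did, and without FoxO-null 1, 812 did. The count of repair genes lower at an unadjusted p under 0.05 was 3 to 7 when 1 array was left out (3.27% to 4.97% of all genes tested). That of genes higher was 0 to 2 (Ercc1 without FoxO-null 1, Xpa and Ddb2 without FoxO-null 3). In those fits 812 and 1286 of 12663 genes had an unadjusted limma p under 0.05 in either direction. The count of repair genes with groups apart was 14 to 18, against 11.7% to 13.3% of all genes tested in fits with fewer arrays.

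The median of the repair genes, -0.16, was -0.22 with median centring and -0.23 with the mean of all probe sets, and -0.22 to -0.15 when 1 array was left out. Median centring shifts the log2 fold change of every gene by the same amount. It moved the share of negative values among all genes to 59.0% and their median to -0.058. The medians under it were -0.38 for recombination and -0.21 for base excision. The mean of all probe sets gave -0.30 for Fanconi, 0.00018 for nucleotide excision and 0.13 for end joining, the last a change of sign. These means take in probe sets under background on every array, such as those of Fancl at -0.65 and Xrcc6 at 0.73. When 1 array was left out the medians were -0.30 to -0.22 for recombination, -0.22 to -0.056 for Fanconi, -0.21 to -0.12 for base excision, -0.39 to -0.21 for checkpoint, -0.15 to 0.0048 for end joining and -0.068 to 0.25 for nucleotide excision genes, the last being negative only without wild-type 1. The cause of the shifts when 1 array was left out was not tested. Same-numbered arrays of the 2 groups deviated from their group means with correlations of 0.023, 0.092 and 0.12 across genes. Wild-type 2 and wild-type 3 each correlated best with the same-numbered array, whereas wild-type 1 correlated best with FoxO-null 2 (0.073). As all of these correlations were low, the numbers were not taken to pair the lines. With the replicate block the count of repair genes lower at an unadjusted p under 0.05 was 5, as without it, and the block changed no call of a repair gene. Of 55 further probe sets of the tested genes, 37 had the sign of the chosen one, as did 17 of the 25 that were above background on every array.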
